A study of Mus musculus with 12 samples.

Results

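The 39 genes described here encode the enzymes and transporters of glycolysis and of the carbohydrate pathways joined to it, in wound-edge keratinocytes of the mouse. They were taken as a list of gene names, drawn up with earlier results of these data known, and all 39 were found among the 55315 genes of the count table. They fall into 11 steps, from glucose entry through the hexokinases, the isomerase, the phosphofructokinases with their bifunctional regulators, the aldolases, the lower trunk and lactate handling, to pyruvate entry and oxidation, the pentose phosphate pathway and glycogen. The RNA came from epithelial cells sorted out of a 0.25 mm ring of skin around wounds on day 3, with 2 or 3 mice pooled for a library. Live Epcam+ and integrin alpha6+ cells were divided by integrin alpha5 (A5), and cells carrying CD45, CD31 or CD117 were discarded. According to the labels the A5-positive cells are the migrating tongue and the A5-negative cells the remaining wound edge. The study compared migrating with nonmigrating cells and RORgt-deficient with wild-type mice.

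There were 4 groups of 3 libraries: RORgt-deficient A5-positive, RORgt-deficient A5-negative, wild-type A5-positive and wild-type A5-negative cells. All came from wounded skin of the same day, so no unwounded skin is among them. RORgt drives the lymphocyte lineages that secrete IL-17, and the titles call the RORgt-deficient mice GFP-KI. The altered locus, strain, sex and age are not given in the labels. Because the cells were sorted and then pooled, a gene's level is an average over the sorted cells, and fewer cells of a type and less RNA per cell cannot be told apart.

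Glycolysis takes up glucose, traps it by phosphorylation, splits the sugar and harvests ATP and NADH in the lower trunk, ending in pyruvate. Pyruvate is either reduced to lactate and exported or carried into mitochondria, where pyruvate dehydrogenase oxidises it and pyruvate dehydrogenase kinases hold that step back. The pentose phosphate pathway branches off after the hexokinase step to make NADPH and ribose, and glycogen stores glucose. In hypoxic cells the factor HIF-1 binds a short core sequence in the promoters of many of these genes, and epidermal keratinocytes are known for a high rate of lactate production.

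Total counts ran from 29293687 to 74563616 per library, and the 39 genes took 0.699% to 1.69% of them. Itga5, the sorting marker, averaged 122 ± 14.7 TMM-scaled CPM (read counts relative to the scaled library total) in RORgt-deficient A5-positive cells, 54.2 ± 6.92 in RORgt-deficient A5-negative cells, 94.4 ± 8.33 in wild-type A5-positive cells and 46.8 ± 4.92 in wild-type A5-negative cells (SD, n = 3 each). The 8 keratinocyte markers summed to 38174 to 55311 CPM of all counts in RORgt-deficient A5-positive cells, 28678 to 42454 in RORgt-deficient A5-negative cells, 45404 to 76479 in wild-type A5-positive cells and 29830 to 44153 in wild-type A5-negative cells. The 17 fibroblast markers, from cells the sort did not aim at, summed to 10872 to 18356 CPM, 740 to 1838 CPM, 6412 to 9992 CPM and 1465 to 2143 CPM in the same order of groups, and none of the 17 was at 0 in a whole group. Of these 17 markers, 13 rose in A5-positive cells of each genotype in the edgeR test without a block, described below. Over all genes 4.56% rose in RORgt-deficient and 3.12% in wild-type A5-positive cells. Macrophage and monocyte markers summed to 543 to 833 CPM, 630 to 1424 CPM, 603 to 681 CPM and 592 to 2043 CPM in that order (13 genes). The 8 Langerhans and dendritic cell markers summed to 424 to 929 CPM in RORgt-deficient A5-positive cells, 313 to 1268 in RORgt-deficient A5-negative cells, 314 to 968 in wild-type A5-positive cells and 334 to 3884 in wild-type A5-negative cells, where library 1 was the highest. Ptprc, which encodes CD45, lay at 3.32 to 6.41 CPM, 3.61 to 25.3 CPM, 3.13 to 4.85 CPM and 2.74 to 39.3 CPM in the same order of groups. The part of these other cells in the values below was not tested.

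Levels can be compared between genes only per length. Averaged over the 12 libraries and divided by exon length in kb, Ldha stood highest at 389 CPM per kb, followed by Pkm at 333, Aldoa at 321, Slc2a1 at 190 and Tpi1 at 157. Slc2a3, at 0.466 CPM per kb, and Rpia, at 0.182, stood lowest. Where isozymes share a step, 1 form usually held most of the reads per kb: GLUT1 (Slc2a1) over GLUT3 (Slc2a3), aldolase A over aldolase C, and lactate dehydrogenase A over B. Hexokinases 1 and 2 and the liver and platelet phosphofructokinases were of similar size per kb. Length here takes in all annotated exons of a gene, which need not all be expressed. It was 6675 bases for Pfkl and 13401 for Pfkp, which averaged 252 and 444 CPM. All 39 genes passed the filter on low counts.

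The promoters of 5 genes are shown because they differ in whether they carry the core letters that HIF-1 recognises: 3 from genes that rose in wild-type A5-positive cells and hold them, 1 from a gene that rose and does not, and 1 from a gene that holds them and passed no test. RefSeq promoter windows (GRCm38.p6, 250 bases before to 50 after the start site, 5′ to 3′ on the gene's strand) were found for 38 of the 39 genes, all but Slc2a3. Capitals mark ACGTG or GCGTG, or their reverse complements CACGT and CACGC. Slc16a3 (chr11:120948817-120949116, plus strand) encodes the lactate exporter MCT4 and Pgk1 (chrX:106186850-106187149, plus strand) phosphoglycerate kinase.
Slc16a3: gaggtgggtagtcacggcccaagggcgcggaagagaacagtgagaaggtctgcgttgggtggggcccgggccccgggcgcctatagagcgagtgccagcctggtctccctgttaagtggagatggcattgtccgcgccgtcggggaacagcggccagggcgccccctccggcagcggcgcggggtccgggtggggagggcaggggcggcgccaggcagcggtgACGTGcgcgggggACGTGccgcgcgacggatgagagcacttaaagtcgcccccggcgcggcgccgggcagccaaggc
Pgk1: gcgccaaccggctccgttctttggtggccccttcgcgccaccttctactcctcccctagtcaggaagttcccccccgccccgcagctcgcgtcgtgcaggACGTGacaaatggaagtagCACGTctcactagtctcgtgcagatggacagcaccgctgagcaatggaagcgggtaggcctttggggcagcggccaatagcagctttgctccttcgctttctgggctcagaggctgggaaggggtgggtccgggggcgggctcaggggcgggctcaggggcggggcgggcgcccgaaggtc
Pfkl (chr10:78009758-78010057, minus strand) encodes the liver phosphofructokinase and holds 1 match, on GCGTG.
Pfkl: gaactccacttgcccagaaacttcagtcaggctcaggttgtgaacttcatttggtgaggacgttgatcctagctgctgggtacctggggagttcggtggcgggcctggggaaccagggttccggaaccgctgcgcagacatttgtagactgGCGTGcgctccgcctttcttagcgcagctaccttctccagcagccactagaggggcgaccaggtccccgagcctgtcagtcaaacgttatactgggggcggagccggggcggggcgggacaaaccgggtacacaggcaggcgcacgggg
Tpi1 (chr6:124814109-124814408, minus strand), triose phosphate isomerase, rose in wild-type A5-positive cells and holds neither motif in this window, while Hk2 (chr6:82774405-82774704, minus strand), hexokinase 2, holds ACGTG at 2 places and passed no test.
Tpi1: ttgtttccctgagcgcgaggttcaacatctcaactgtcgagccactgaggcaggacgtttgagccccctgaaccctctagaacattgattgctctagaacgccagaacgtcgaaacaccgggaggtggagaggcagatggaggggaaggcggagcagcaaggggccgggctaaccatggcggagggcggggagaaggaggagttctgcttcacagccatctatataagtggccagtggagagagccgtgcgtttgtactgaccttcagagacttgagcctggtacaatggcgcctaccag
Hk2: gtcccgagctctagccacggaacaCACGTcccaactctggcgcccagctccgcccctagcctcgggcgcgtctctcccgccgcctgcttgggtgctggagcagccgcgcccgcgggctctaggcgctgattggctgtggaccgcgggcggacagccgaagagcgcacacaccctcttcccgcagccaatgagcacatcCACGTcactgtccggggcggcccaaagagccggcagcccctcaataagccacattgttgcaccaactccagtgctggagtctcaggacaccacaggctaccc
Of the 54 windows of the 38 genes, 75.9% held at least 1 of the motifs, against 43.8% of all 32851 windows in the table and 49.3% of those of protein-coding genes. The windows of these genes were also richer in GC, with a median of 61.2% against 52.7% over all windows and 56.3% over those of protein-coding genes, and in CpG, with a median of 21 against 7 and 13. The 5 promoters shown are examples. Gpi1 and Gys1, which also rose in wild-type A5-positive cells, held neither motif, and 33 of the 38 genes held 1 in some window. These matches describe letters and do not show binding.

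In wild-type mice, most genes of the lower trunk of glycolysis, the lactate genes Ldha and Slc16a3, the liver phosphofructokinase, the isomerase and glycogen synthase were higher in A5-positive than in A5-negative cells. Of the 39 genes, 9 changed at a Benjamini-Hochberg (BH) adjusted p under 0.05 in edgeR's quasi-likelihood test, and all 9 rose: Eno1, Slc16a3, Pkm, Tpi1, Ldha, Pgk1, Pfkl, Gys1 and Gpi1. Over all 16677 genes tested, 3.45% changed and 3.12% rose. The median log2 fold change was 0.29 over the 39 genes and 0.03 over all genes. In 19 of the 39 genes the 3 A5-positive libraries all lay above the 3 A5-negative ones, against 15.9% of all genes, and in 0 all lay below, against 9.12%. Library numbers were taken to pair the libraries across groups, and with the number also taken up as a block the model called 17 of the 39. The same 9 rose with Gapdh, Aldoa, Pgam1, Slc2a1, G6pdx, Tkt and Dlat, and Ldhb fell, where 8.76% of all genes rose and 5.59% fell.

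These calls leaned on single libraries. Without the block, 0 of the 39 genes passed without wild-type A5-positive library 1 (adjusted p of the 9 from 0.0611 to 0.198) or without wild-type A5-negative library 3 (0.0986 to 0.199). Over all genes these fits called 282 and 156. Without wild-type A5-negative library 1 only Slc16a3 passed (0.0221), and without library 2 of that group only Pkm (0.0489), with the other 8 at 0.054 to 0.118 and 0.0523 to 0.111. All-gene calls there were 378 and 255. Leaving out wild-type A5-positive library 2 ended the calls of Pkm (0.0691), Pfkl (0.116) and Gpi1 (0.0881), and leaving out library 3 ended that of Gys1 (0.0531). A fit of the 6 wild-type libraries alone called 0 of the 39, with 17 at an unadjusted p under 0.05, and 344 of the 15432 genes tested. DESeq2 on all 12 called 14, all higher, and 1349 of the 16007 genes to which it gave an adjusted p. With the block, Eno1, Slc16a3, Pkm, Pfkl and Gapdh stayed under 0.05 whichever of the 6 wild-type libraries was left out, with adjusted p from 0.00255 to 0.0352. The block calls numbered 10, 11 and 18 without A5-positive libraries 1, 2 and 3, and 5, 14 and 5 without A5-negative libraries 1, 2 and 3. Calls over all genes moved as well in these fits. They numbered 843, 776 and 2357 without the A5-positive libraries and 861, 1436 and 579 without the A5-negative ones, of 17182 to 17575 genes tested. The Ldhb call with the block held without A5-positive library 3 (0.0386) and ended without each of the other 5 (0.0713 to 0.193).

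In RORgt-deficient mice the lower trunk also stood higher in A5-positive cells, by smaller fitted changes. Without the block edgeR called 0 of the 39 genes, against 5.52% of all genes (4.56% higher and 0.965% lower), and 12 had an unadjusted p under 0.05; DESeq2 called 3, of which 2 were higher and 1 lower, and 1597 of the 18416 genes to which it gave an adjusted p. With the block 7 genes rose (Eno1, Pgk1, Gapdh, Pgam1, Tpi1, Ldha and Slc16a3) and Pfkfb4 fell, where 10.1% of all genes rose and 7.54% fell. The median log2 fold change was 0.29 over the 39 genes and 0.00 over all genes. In 10 genes the A5-positive libraries all lay above the A5-negative ones, against 14.3% of all genes, and in Pfkfb4, Aldoc and Pdk1 they all lay below, against 11.3%, so that 25.6% of all genes showed no overlap. Of the 8 block calls, 0 were left without RORgt-deficient A5-negative library 1 (adjusted p 0.0547 to 0.183) or A5-positive library 3 (0.0536 to 0.168). Over all genes these fits called 1321 and 1073. Without A5-positive library 1 the block left 1 call, Slc16a3 (0.0171), and without A5-negative library 3 it left 3, Eno1 (0.0375), Gapdh (0.0187) and Pgam1 (0.0281). All-gene calls there were 1426 and 2050. Without A5-negative library 2 the calls of Tpi1 (0.0527) and Pfkfb4 ended and Mpc1 was added. The Pfkfb4 call ended whichever of the 6 libraries was left out (0.0536 to 0.12).

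**Figure D1:**
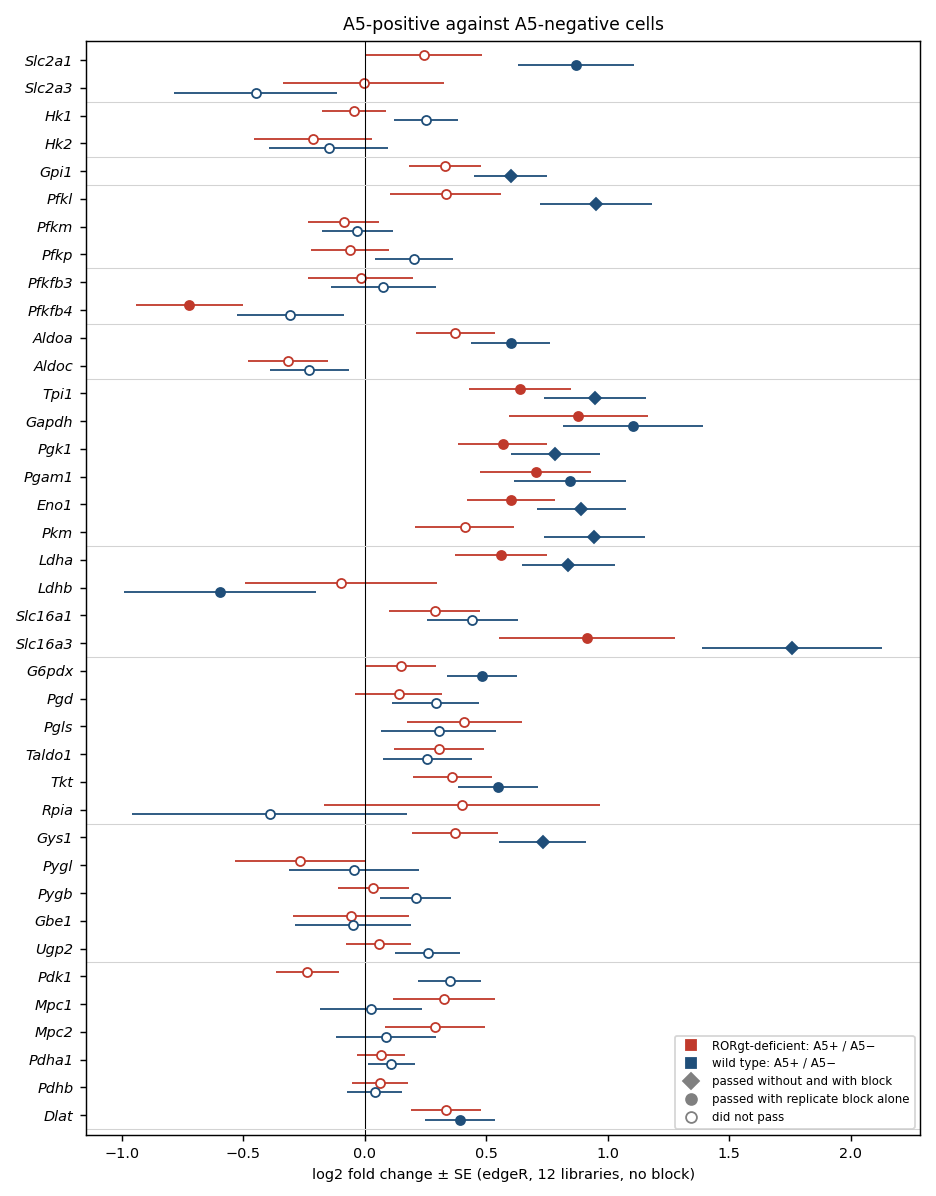
Log2 fold change of A5-positive over A5-negative cells with its SE for each of the 39 genes, in RORgt-deficient (red) and wild-type (blue) mice, from the fit of 12 libraries without a block; grey lines part the steps. Diamonds passed an adjusted p of 0.05 without and with the replicate block, filled circles passed only with it and open circles passed neither; the 6 genes of the lower trunk lie right of 0 in both genotypes.

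Glucose entry rested on Slc2a1 (chromosome 4, 119108711 to 119137983 on GRCm38), whose product GLUT1 is the basal glucose transporter of epidermis. Slc2a1 had 717, 491 and 692 CPM in RORgt-deficient A5-positive cells, 572, 505 and 529.5 CPM in RORgt-deficient A5-negative cells, 1427, 720.3 and 748 CPM in wild-type A5-positive cells, and 529, 520.3 and 537 CPM in wild-type A5-negative cells. Library 1 was far above the rest of the wild-type A5-positive group, and the other 2 libraries still lay above all 3 wild-type A5-negative ones. Slc2a1 had a log2 fold change of 0.87 ± 0.24 (SE, adjusted p = 0.0707) in wild-type cells, which passed with the block (0.81 ± 0.18, adjusted p = 0.0181), and 0.24 ± 0.24 (SE, adjusted p = 0.57) in RORgt-deficient cells. The wild-type change was 0.46 without A5-positive library 1, and the block call ended without A5-negative libraries 1 (adjusted p 0.0845) or 3 (0.0693). Slc2a3, which encodes the neuronal-type transporter GLUT3, lay between 1.55 and 4.91 CPM in the 12 libraries and passed no test.

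Hk1 and Hk2 encode the hexokinases that trap glucose in the cell, Hk2 being the form known to respond to HIF-1. Hk2 had 130.2, 224 and 192 CPM in RORgt-deficient A5-positive cells, 179, 201 and 253 CPM in RORgt-deficient A5-negative cells, 121, 169 and 164 CPM in wild-type A5-positive cells, and 117, 181 and 206 CPM in wild-type A5-negative cells. The Hk2 groups overlapped in all 4 pairwise comparisons, and within every group library 1 was the lowest. The log2 fold change of Hk2 between A5-positive and A5-negative cells was -0.21 ± 0.24 (SE, adjusted p = 0.634) in RORgt-deficient mice and -0.15 ± 0.24 (SE, adjusted p = 0.753) in wild-type mice. Hk1 lay between 162 and 231 CPM and passed no test. Gpi1, glucose-6-phosphate isomerase, had 318, 261 and 295 CPM in RORgt-deficient A5-positive cells, 212, 243 and 241 CPM in RORgt-deficient A5-negative cells, 479, 378 and 323 CPM in wild-type A5-positive cells, and 255, 277 and 247 CPM in wild-type A5-negative cells. Its A5-positive libraries lay above the A5-negative ones in both genotypes, with a log2 fold change of 0.60 ± 0.15 (SE, adjusted p = 0.0499) in wild-type cells and 0.33 ± 0.15 (SE, adjusted p = 0.224) in RORgt-deficient cells.

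**Figure D2:**
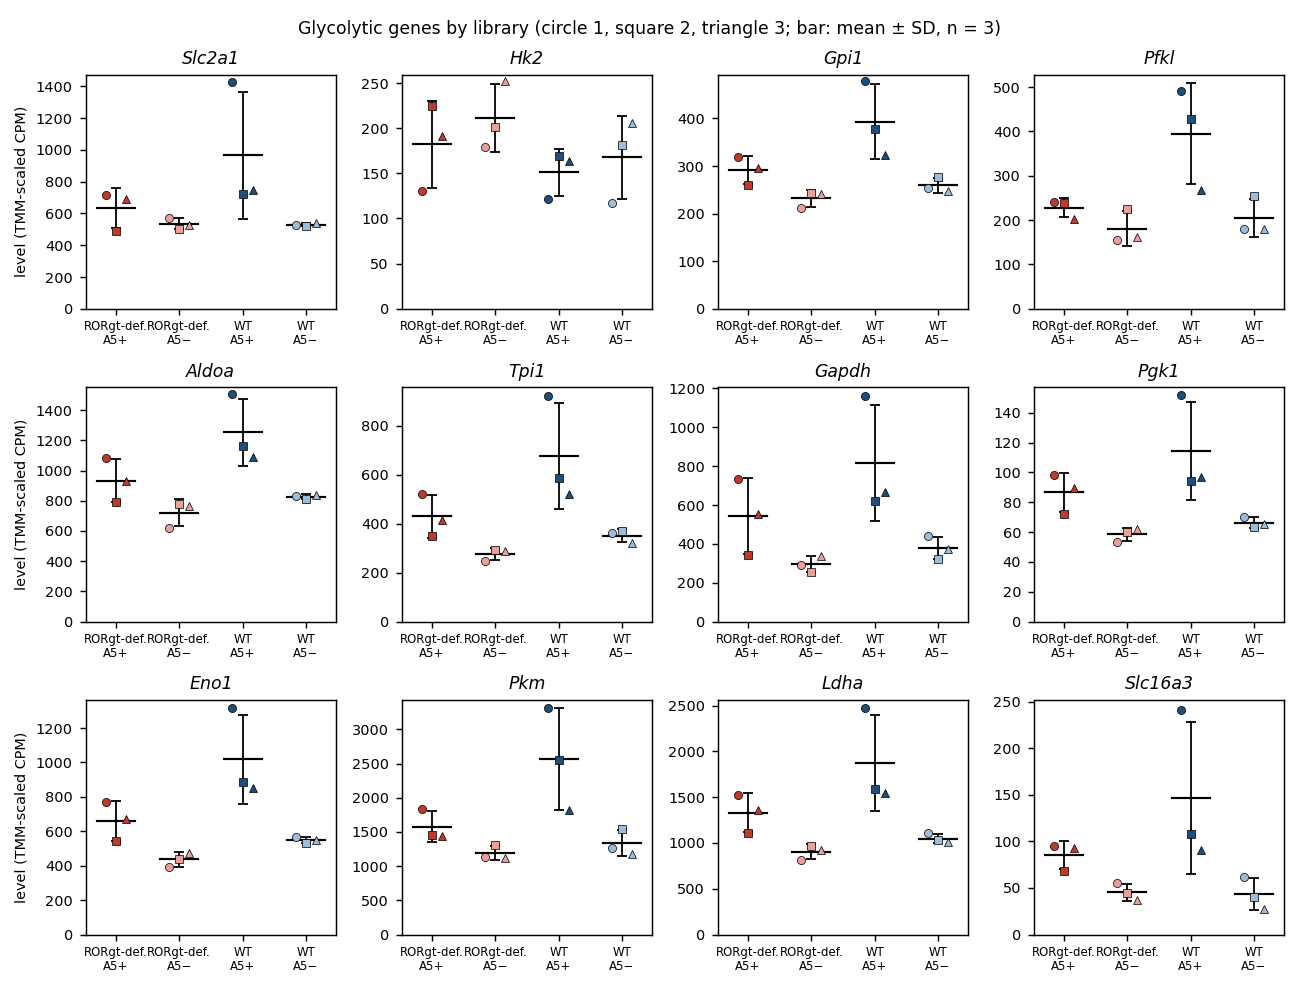
Levels of 12 glycolytic genes in TMM-scaled CPM for each library, by group from RORgt-deficient A5-positive to wild-type A5-negative; circles, squares and triangles are libraries 1, 2 and 3, and the bar is the mean ± SD (n = 3). Wild-type A5-positive library 1 is the highest of the 12 for all genes shown but Hk2, and Hk2 shows overlapping groups.

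Phosphofructokinase is the committed step of glycolysis, and of its 3 genes only Pfkl passed a test. Pfkl (chromosome 10, 77986947 to 78010083) had 241, 239 and 203 CPM in RORgt-deficient A5-positive cells, 156, 225 and 161 CPM in RORgt-deficient A5-negative cells, 490.1, 427 and 268 CPM in wild-type A5-positive cells, and 181, 254 and 179 CPM in wild-type A5-negative cells. The wild-type A5-positive libraries all lay above the other 9, library 3 by the least. Pfkl rose by 0.95 ± 0.23 (SE, adjusted p = 0.045) on the log2 scale in wild-type A5-positive cells, while the change in RORgt-deficient cells was 0.33 ± 0.23 (SE, adjusted p = 0.407). The muscle form Pfkm (13.7 to 18.2 CPM) and the platelet form Pfkp (382 to 542 CPM) passed no test in any comparison. Pfkp shares 748 exon bases with Pitrm1 on the opposite strand, whose counts were 22.5% of its own, and Pfkm touches Senp1, so their counts are uncertain without a stated strand setting.

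The bifunctional enzymes encoded by Pfkfb3 and Pfkfb4 make and remove fructose 2,6-bisphosphate, the activator of phosphofructokinase. Pfkfb3 lay between 25.9 and 41.8 CPM with overlapping groups throughout. Pfkfb4 had 7.66, 5.88 and 8.24 CPM in RORgt-deficient A5-positive cells, 11.7, 12.6 and 11.7 CPM in RORgt-deficient A5-negative cells, 7.53, 12.04 and 7.98 CPM in wild-type A5-positive cells, and 11.3, 13.4 and 9.34 CPM in wild-type A5-negative cells. The 3 RORgt-deficient A5-positive libraries were below the 3 RORgt-deficient A5-negative ones, and the wild-type groups overlapped. Its log2 fold change was -0.72 ± 0.22 (SE, adjusted p = 0.0839) in RORgt-deficient cells (-0.71 ± 0.21, adjusted p = 0.0406 with the block) and -0.31 ± 0.22 (SE, adjusted p = 0.444) in wild-type cells.

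Aldolase splits the 6-carbon sugar. Aldoa had 1080.2, 794 and 928 CPM in RORgt-deficient A5-positive cells, 619, 779.9 and 764 CPM in RORgt-deficient A5-negative cells, 1505, 1164 and 1088 CPM in wild-type A5-positive cells, and 830.01, 808 and 841 CPM in wild-type A5-negative cells. In both genotypes the A5-positive libraries lay above the A5-negative ones, by a log2 fold change of 0.60 ± 0.16 (SE, adjusted p = 0.0674) in wild-type cells (0.59 ± 0.15, adjusted p = 0.0258 with the block) and 0.37 ± 0.16 (SE, adjusted p = 0.206) in RORgt-deficient cells. The wild-type block call ended in each fit that left out 1 library other than A5-positive 3 (adjusted p 0.0686 to 0.119). Aldoc, the brain-type aldolase, ran the other way at a far lower level, from 10.8 to 19.1 CPM, with a log2 fold change of -0.32 ± 0.16 (SE, adjusted p = 0.279) in RORgt-deficient cells and -0.23 ± 0.16 (SE, adjusted p = 0.447) in wild-type cells, and passed no test.

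The lower trunk runs from triose phosphate isomerase to pyruvate kinase. In each of its 6 genes all A5-positive libraries lay above all A5-negative ones in both genotypes. Of all genes, 14.3% did so in RORgt-deficient and 15.9% in wild-type mice. The nearest Gapdh libraries in RORgt-deficient mice had 344 and 340.3 CPM. The summed level of the 6 genes was 4028, 2801 and 3227 CPM in RORgt-deficient A5-positive libraries, against 2156, 2381 and 2321 CPM in RORgt-deficient A5-negative ones. In wild-type mice it was 6964, 4803 and 4011 CPM in A5-positive libraries, against 2755, 2872 and 2526 CPM in A5-negative ones. The median log2 fold change of the 6 was 0.62 in RORgt-deficient cells and 0.92 in wild-type cells. The fibroblast sums also stood higher in A5-positive cells of both genotypes, and their part in these levels was not tested. In libraries 1, 2 and 3 the fibroblast sums were 6412, 8951 and 9992 CPM in wild-type A5-positive cells. They were 17363, 10872 and 18356 CPM in RORgt-deficient A5-positive cells. The keratinocyte sums were 76479, 62101 and 45404 CPM and 55311, 43834 and 38174 CPM in the same order.

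**Figure D3:**
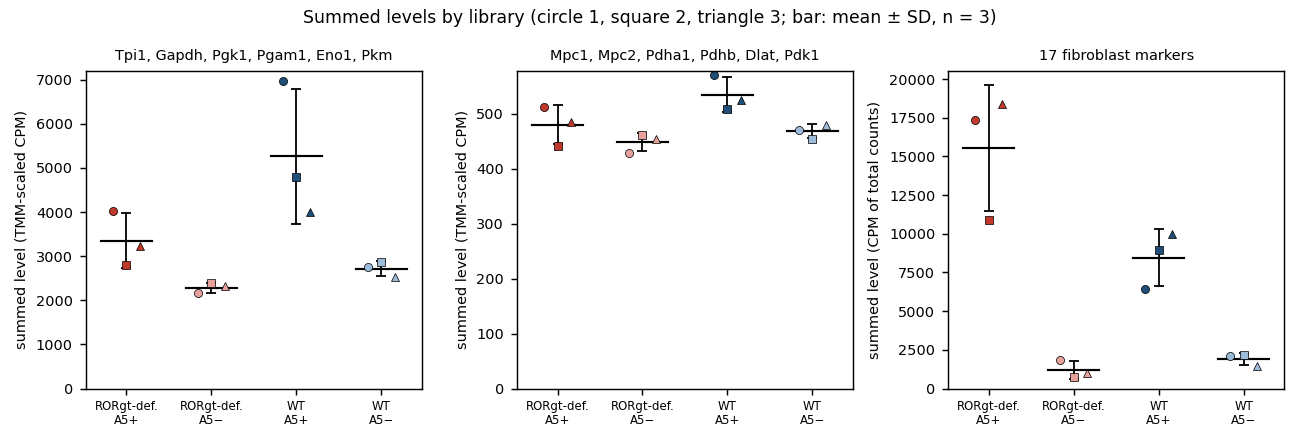
Summed levels by library for the 6 lower-trunk genes and the 6 genes of pyruvate entry and oxidation (TMM-scaled CPM), and for 17 fibroblast markers (CPM of all counts); symbols are libraries and bars are mean ± SD (n = 3). The lower trunk reaches 6964 CPM in wild-type A5-positive library 1, pyruvate genes stay between 429 and 571 CPM in the 12 libraries, and the fibroblast sum is highest in the RORgt-deficient A5-positive group.

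Eno1, enolase (chromosome 4, 150236721 to 150248879), had 773, 542 and 669 CPM in RORgt-deficient A5-positive cells, 394, 438 and 477 CPM in RORgt-deficient A5-negative cells, 1315, 889 and 849.5 CPM in wild-type A5-positive cells, and 565, 530.4 and 551 CPM in wild-type A5-negative cells. Wild-type A5-negative libraries were nearly level with each other, and the smallest wild-type A5-positive value was well above them. Eno1 rose by 0.89 ± 0.18 (SE, adjusted p = 0.0214) in wild-type A5-positive cells, and its change in RORgt-deficient cells was 0.60 ± 0.18 (SE, adjusted p = 0.0835), or 0.58 ± 0.15, adjusted p = 0.0269 with the block. Pkm, pyruvate kinase of the muscle type, had 1837, 1454 and 1445 CPM in RORgt-deficient A5-positive cells, 1137, 1305 and 1121 CPM in RORgt-deficient A5-negative cells, 3314, 2554 and 1822 CPM in wild-type A5-positive cells, and 1272, 1545 and 1178 CPM in wild-type A5-negative cells. It rose by 0.94 ± 0.21 (SE, adjusted p = 0.0279) in wild-type A5-positive cells and had a change of 0.41 ± 0.20 (SE, adjusted p = 0.26) in RORgt-deficient cells, the smallest of the 6 there, although the libraries of the RORgt-deficient groups did not overlap either. Gene counts do not tell the M1 and M2 splice forms apart.

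Tpi1 had 523, 349 and 417 CPM in RORgt-deficient A5-positive cells, 248, 293 and 287 CPM in RORgt-deficient A5-negative cells, 923, 587 and 521 CPM in wild-type A5-positive cells, and 363, 371 and 321 CPM in wild-type A5-negative cells. Triose phosphate isomerase thus stood at its highest in wild-type A5-positive library 1, with a rise of 0.95 ± 0.21 (SE, adjusted p = 0.0306) in wild-type A5-positive cells and a change of 0.64 ± 0.21 (SE, adjusted p = 0.107) (0.61 ± 0.18, adjusted p = 0.0391 with the block) in RORgt-deficient cells. Pgk1 (chromosome X, 106187100 to 106203699), which makes the first ATP of the trunk, had 98.3, 72.5 and 89.4 CPM in RORgt-deficient A5-positive cells, 53.5, 59.9 and 62.1 CPM in RORgt-deficient A5-negative cells, 152, 94.1 and 96.8 CPM in wild-type A5-positive cells, and 70.4, 63.2 and 65.5 CPM in wild-type A5-negative cells. It rose by 0.78 ± 0.18 (SE, adjusted p = 0.0383) in wild-type A5-positive cells, and its change in RORgt-deficient cells was 0.57 ± 0.18 (SE, adjusted p = 0.101) (0.55 ± 0.15, adjusted p = 0.0329 with the block).

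Gapdh, which reduces NAD, had 733, 344 and 555 CPM in RORgt-deficient A5-positive cells, 291, 256 and 340.3 CPM in RORgt-deficient A5-negative cells, 1159.7, 623 and 665 CPM in wild-type A5-positive cells, and 440.4, 324 and 374 CPM in wild-type A5-negative cells. Its fitted changes were the largest of the lower trunk in both genotypes, 1.10 ± 0.29 (SE, adjusted p = 0.0587) in wild-type and 0.88 ± 0.29 (SE, adjusted p = 0.104) in RORgt-deficient cells, and it passed with the block alone (1.07 ± 0.18, adjusted p = 0.00475 and 0.81 ± 0.18, adjusted p = 0.012). The spread within groups was also wide: library 2 was the lowest of each group, and RORgt-deficient A5-positive library 2, at 344 CPM, was barely above RORgt-deficient A5-negative library 3. Gapdh has 77 near copies in the genome at 95% identity or more. They took 3.14% of the counts of Gapdh and its copies together, and the handling of reads matching several places is not stated. Pgam1, phosphoglycerate mutase, had 64.4, 39.6 and 51.8 CPM in RORgt-deficient A5-positive cells, 31.7, 29.9 and 34.2 CPM in RORgt-deficient A5-negative cells, 99.5, 56.3 and 56.7 CPM in wild-type A5-positive cells, and 44.3, 38.3 and 35.8 CPM in wild-type A5-negative cells. Its changes were 0.84 ± 0.23 (SE, adjusted p = 0.0679) in wild-type and 0.70 ± 0.23 (SE, adjusted p = 0.105) in RORgt-deficient cells, and both passed with the block alone (0.81 ± 0.16, adjusted p = 0.011 and 0.67 ± 0.16, adjusted p = 0.0188).

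Lactate dehydrogenase A reduces pyruvate to lactate, and the monocarboxylate transporters MCT1 (Slc16a1) and MCT4 (Slc16a3) carry lactate across the membrane. Ldha (chromosome 7, 46841475 to 46855627) had 1527, 1104 and 1359.9 CPM in RORgt-deficient A5-positive cells, 811, 968 and 927 CPM in RORgt-deficient A5-negative cells, 2475, 1595 and 1547 CPM in wild-type A5-positive cells, and 1104, 1033 and 1006 CPM in wild-type A5-negative cells. The A5-positive libraries were above the A5-negative ones in each genotype, with a rise of 0.84 ± 0.19 (SE, adjusted p = 0.0335) in wild-type cells and a change of 0.56 ± 0.19 (SE, adjusted p = 0.116), or 0.54 ± 0.16, adjusted p = 0.0427 with the block, in RORgt-deficient cells. Ldhb, the form that favours pyruvate, had 41.1, 20.8 and 48.7 CPM in RORgt-deficient A5-positive cells, 29.6, 33.6 and 55.2 CPM in RORgt-deficient A5-negative cells, 30.8, 25.5 and 58.5 CPM in wild-type A5-positive cells, and 59.2, 36.6 and 77.7 CPM in wild-type A5-negative cells. Its groups overlapped throughout and library 3 was the highest of each group, and the wild-type change was -0.60 ± 0.40 (SE, adjusted p = 0.408) without the block and -0.62 ± 0.18, adjusted p = 0.0461 with it.

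Slc16a3 (chromosome 11, 120948480 to 120960868) showed the largest fitted A5 effect of the 39 genes in both genotypes. It had 94.8, 67.9 and 93.2 CPM in RORgt-deficient A5-positive cells, 54.8, 44.4 and 36.5 CPM in RORgt-deficient A5-negative cells, 241, 108 and 90.9 CPM in wild-type A5-positive cells, and 61.7, 40.7 and 27.4 CPM in wild-type A5-negative cells. MCT4 transcripts thus separated the A5 groups in each genotype, and in wild-type A5-positive cells library 1 exceeded the other 2 by more than the whole range of the A5-negative group. The log2 fold change was 1.76 ± 0.37 (SE, adjusted p = 0.024) in wild-type cells, and 0.91 ± 0.36 (SE, adjusted p = 0.171) in RORgt-deficient cells, where it passed with the block (0.95 ± 0.23, adjusted p = 0.0175). Without wild-type A5-positive library 1 the wild-type change was 1.19 (adjusted p 0.0853), or 1.41 (0.00454) with the block. Slc16a1 was higher in every wild-type A5-positive library than in any wild-type A5-negative one, but the change of 0.44 ± 0.19 (SE, adjusted p = 0.208) did not pass in either fit of all 12 libraries.

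Of pyruvate entry and oxidation, only Dlat passed an A5 test, in wild-type cells and with the block. The mitochondrial carrier genes Mpc1 (13.9 to 25.0 CPM) and Mpc2 (32.2 to 58.1 CPM) and the dehydrogenase subunits Pdha1 (137 to 161 CPM) and Pdhb (83.6 to 104 CPM) passed neither fit of all 12 libraries. Counts of Mpc1 are uncertain, because near copies took 16.7% of the counts of Mpc1 and its copies together. Dlat, the acetyltransferase of the complex, had 108, 85.7 and 108 CPM in RORgt-deficient A5-positive cells, 82.01, 71.8 and 86.2 CPM in RORgt-deficient A5-negative cells, 139, 114 and 107 CPM in wild-type A5-positive cells, and 95.3, 81.8 and 98.2 CPM in wild-type A5-negative cells. Its wild-type change of 0.39 ± 0.14 (SE, adjusted p = 0.156) passed with the block (0.39 ± 0.11, adjusted p = 0.0331), and that call ended in each fit that left out 1 library other than A5-positive 3 (adjusted p 0.1 to 0.153).

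Pdk1, the kinase that switches pyruvate dehydrogenase off, had 69.1, 72.04 and 63.2 CPM in RORgt-deficient A5-positive cells, 77.9, 83.7 and 79.2 CPM in RORgt-deficient A5-negative cells, 109, 99.3 and 83.2 CPM in wild-type A5-positive cells, and 70.2, 87.1 and 71.9 CPM in wild-type A5-negative cells. In wild-type mice A5-positive library 3 lay below A5-negative library 2, so the groups overlapped, while in RORgt-deficient mice every A5-positive library lay below every A5-negative one. Its A5 effect was -0.24 ± 0.13 (SE, adjusted p = 0.304) in RORgt-deficient cells and 0.35 ± 0.13 (SE, adjusted p = 0.162) in wild-type cells (0.35 ± 0.11, adjusted p = 0.0504 with the block), and neither passed.

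Of the pentose phosphate pathway, G6pdx and Tkt passed an A5 test, both in wild-type cells and with the block. G6pdx, the enzyme that commits glucose 6-phosphate to the pathway, had 99.4, 75.5 and 89.4 CPM in RORgt-deficient A5-positive cells, 77.5, 71.7 and 89.2 CPM in RORgt-deficient A5-negative cells, 147, 113 and 117 CPM in wild-type A5-positive cells, and 86.7, 89.1 and 94.3 CPM in wild-type A5-negative cells. The wild-type A5-positive libraries were the 3 highest of the 12, and the wild-type change was 0.48 ± 0.14 (SE, adjusted p = 0.0903), or 0.48 ± 0.12, adjusted p = 0.0242 with the block. G6pdx shares 418 exon bases with Ikbkg on the opposite strand, whose counts were 45.3% of its own. Tkt, transketolase, had 361, 241 and 327 CPM in RORgt-deficient A5-positive cells, 235, 221 and 268 CPM in RORgt-deficient A5-negative cells, 499.7, 412 and 379 CPM in wild-type A5-positive cells, and 305, 269.5 and 308 CPM in wild-type A5-negative cells. Its wild-type change of 0.55 ± 0.16 (SE, adjusted p = 0.0921) passed with the block (0.55 ± 0.13, adjusted p = 0.0188), and the RORgt-deficient groups overlapped. The block calls of both genes ended without wild-type A5-negative libraries 1 (adjusted p 0.115 and 0.0815) and 3 (0.0956 and 0.0762) and without A5-positive libraries 1 (0.114 and 0.0784) and 2 (0.0733 and 0.083). Pgd (81.5 to 161 CPM), Pgls (46.9 to 104 CPM), Taldo1 (127 to 236 CPM) and Rpia (0.339 to 2.28 CPM) passed no A5 test.

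Among the glycogen genes only Gys1, muscle-type glycogen synthase, was called in an A5 comparison. It had 34.7, 26.9 and 38.3 CPM in RORgt-deficient A5-positive cells, 28.8, 22.1 and 26.4 CPM in RORgt-deficient A5-negative cells, 60.99, 42.00 and 43.5 CPM in wild-type A5-positive cells, and 29.1, 30.7 and 28.5 CPM in wild-type A5-negative cells, with a rise of 0.73 ± 0.18 (SE, adjusted p = 0.0453) in wild-type A5-positive cells and a change of 0.37 ± 0.18 (SE, adjusted p = 0.244) in RORgt-deficient cells. Gys1 shares 310 exon bases with Ruvbl2 on the opposite strand, whose counts were 123% of its own, so reads of Ruvbl2 can be among those of Gys1. The phosphorylases Pygl (18.7 to 39.01 CPM) and Pygb (58.5 to 84.0 CPM), the branching enzyme Gbe1 (24.8 to 49.5 CPM) and Ugp2 (81.9 to 122 CPM), which makes UDP-glucose, passed no test.

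RORgt-deficient against wild-type A5-positive cells gave lower fitted values for most of the 39 genes. Without the block edgeR called 0 of them, against 0.006% of all genes, with 14 at an unadjusted p under 0.05. DESeq2 also called 0 of the 39, with 16 at an unadjusted p under 0.05. It called 382 of the 16610 genes to which it gave an adjusted p. With the block 4 fell, Pdk1, G6pdx, Pfkl and Pkm, and 0 rose, where 4.02% of all genes changed, 1.76% falling and 2.26% rising. The median log2 fold change was -0.26 over the 39 genes, 6 of them above 0, and 0.00 over all genes. In 10 genes all RORgt-deficient libraries lay below all wild-type ones, against 9.01% of all genes: Slc2a1, Gpi1, Pfkl, Aldoa, Eno1, Ldha, Pdk1, G6pdx, Tkt and Gys1. In 0 genes did they all lie above, against 9.04% of all genes. This comparison and the wild-type A5 comparison share the wild-type A5-positive libraries, so the high values of library 1 of that group enter both.

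With the block Pdk1 fell by 0.51 ± 0.11 (SE, adjusted p = 0.0377), G6pdx by 0.52 ± 0.12 (SE, adjusted p = 0.0408), Pfkl by 0.77 ± 0.16 (SE, adjusted p = 0.039) and Pkm by 0.68 ± 0.16 (SE, adjusted p = 0.0447) on the log2 scale in RORgt-deficient A5-positive cells. Pdk1 had 69.1, 72.0 and 63.2 CPM there, against 109, 99.3 and 83.2 CPM in wild-type A5-positive cells. The pair nearest each other, 72.0 and 83.2 CPM, still differed by more than the spread of the RORgt-deficient libraries. All 4 calls ended when any 1 RORgt-deficient A5-positive library was left out (adjusted p 0.0734 to 0.181) and when wild-type A5-positive library 1 was (0.158 to 0.176) or 2 (0.0948 to 0.113). Over all genes these fits called 86, 14 and 12 without RORgt-deficient libraries 1, 2 and 3, and 6 and 23 without wild-type libraries 1 and 2. Without wild-type A5-positive library 3 the block called 7 of the 39 genes, adding Eno1 (0.035), Tkt (0.0291) and Pgd (0.0478), and 705 of all genes. Eno1 itself was at -0.62 ± 0.15 (SE, adjusted p = 0.0505) with the block in all libraries. Slc2a1 had a change of -0.61 ± 0.24 (SE, adjusted p = 0.279) and Ldha one of -0.49 ± 0.19 (SE, adjusted p = 0.271); neither passed in either fit.

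Between RORgt-deficient and wild-type A5-negative cells most fitted changes were also below 0, with 13 of the 39 above it. By edgeR 0 of the 39 genes passed without or with the block, against 0.006% of all genes in both fits. Of the 39, 0 had an unadjusted p under 0.05 without the block and 7 with it. DESeq2 called 0 of the 39 and 18 of the 32292 genes to which it gave an adjusted p. In 8 genes the RORgt-deficient libraries all lay below the wild-type ones (Gpi1, Aldoa, Tpi1, Pgk1, Pgam1, Eno1, Ldha and Tkt), against 8.26% of all genes, and in 0 they all lay above, against 7.33%. The median log2 fold change over the 39 was -0.16, against 0.00 over all genes. The smallest p-values were those of Slc16a1, with a change of 0.39 ± 0.19 (SE, adjusted p = 0.779), Eno1 with -0.33 ± 0.18 (SE, adjusted p = 0.779) and Tkt with -0.29 ± 0.16 (SE, adjusted p = 0.779). Slc2a1 differed by 0.02 ± 0.24 (SE, adjusted p = 0.989), Ldha by -0.22 ± 0.19 (SE, adjusted p = 0.795) and Pkm by -0.17 ± 0.20 (SE, adjusted p = 0.846).

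**Figure D4:**
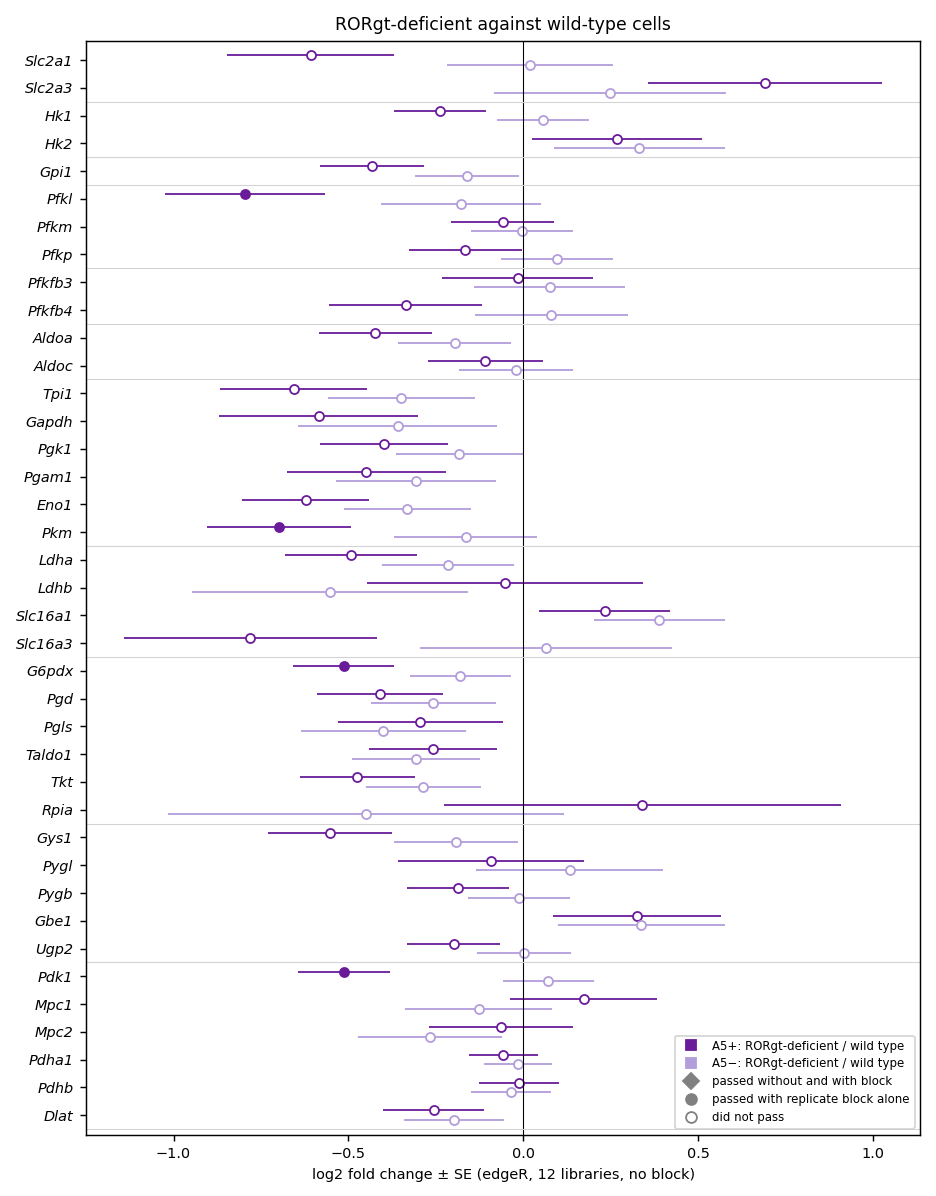
Log2 fold change of RORgt-deficient over wild-type cells with its SE for each of the 39 genes, in A5-positive (dark) and A5-negative (light) cells, from the fit of 12 libraries without a block. Filled circles passed an adjusted p of 0.05 with the replicate block alone (Pdk1, G6pdx, Pfkl and Pkm in A5-positive cells), and open circles passed neither fit.

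Whether the A5 effect differed between the genotypes was tested as an interaction, the A5 effect in RORgt-deficient cells minus that in wild-type cells. By edgeR 0 of the 39 genes, and 0% of all genes, passed without or with the block. In these fits 1 and 5 of the 39 had an unadjusted p under 0.05. DESeq2 called 0 of the 39 and 4 of the 32292 genes to which it gave an adjusted p. The smallest p-values were those of Pdk1, with an interaction of -0.58 ± 0.18 (SE, adjusted p = 0.9999), or -0.59 ± 0.15, adjusted p = 0.914 with the block, Pfkl with -0.62 ± 0.32 (SE, adjusted p = 0.9999) and Slc2a1 with -0.63 ± 0.34 (SE, adjusted p = 0.9999). Ldha had -0.28 ± 0.27 (SE, adjusted p = 0.9999) and Pkm -0.53 ± 0.29 (SE, adjusted p = 0.9999). The median over the 39 genes was -0.19, with 8 above 0, and over all genes 0.00. The smaller changes in RORgt-deficient cells are therefore not shown to differ from those in wild-type cells.

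Within a step, the share of an isozyme does not depend on the library total. Pfkl made up 51.1%, 47.4% and 46.6% of phosphofructokinase reads per kb in RORgt-deficient A5-positive cells and 38.8%, 43.8% and 41.5% in RORgt-deficient A5-negative cells. In wild-type mice it made up 63.5%, 58.8% and 53.8% in A5-positive cells and 44.9%, 48.4% and 44.1% in A5-negative cells. No pair of these groups overlapped in the 4 comparisons, each with p = 0.1 in a two-sided exact permutation test, the smallest that 3 against 3 allows, and 0.317 after BH adjustment over all shares tested. The Pfkl share was 12.9 percentage points higher in A5-positive than in A5-negative wild-type cells and 6.98 points higher in RORgt-deficient ones. It was 10.4 points lower in RORgt-deficient than in wild-type A5-positive cells (difference -10.4) and 4.43 points lower in A5-negative ones (difference -4.43).

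Slc16a3 made up 18.3%, 16.7% and 15.1% of the reads per kb of both transporters in RORgt-deficient A5-positive cells and 14.4%, 13.0% and 7.79% in RORgt-deficient A5-negative cells. In wild-type mice the share was 36.9%, 24.1% and 20.9% in A5-positive cells and 20.9%, 12.9% and 8.40% in A5-negative cells. The 2 A5 comparisons and the A5-positive genotype comparison did not overlap (exact permutation p = 0.1 each), although the nearest wild-type libraries differed only in the second decimal. Ldhb took 5.40% ± 1.60, 8.37% ± 2.41, 4.40% ± 2.60 and 10.4% ± 3.53 of lactate dehydrogenase reads per kb (SD, n = 3) in RORgt-deficient A5-positive, RORgt-deficient A5-negative, wild-type A5-positive and wild-type A5-negative cells, with overlapping groups. Hk2 held 59.2% ± 8.14, 62.4% ± 6.35, 51.1% ± 7.19 and 57.4% ± 6.999 of hexokinase reads per kb in the same order, and these groups overlapped too.

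**Figure D5:**
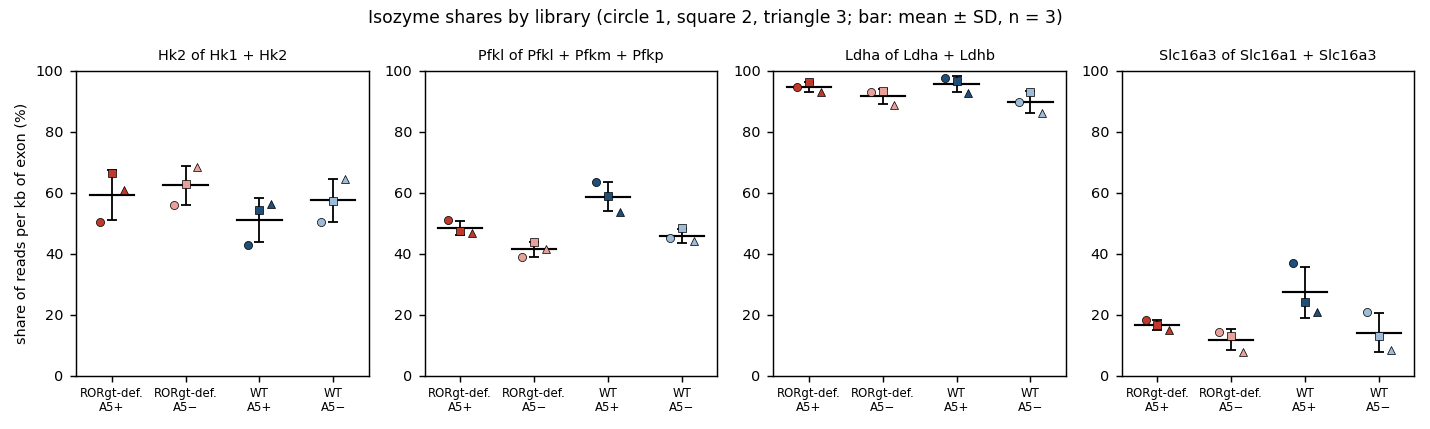
Share of 1 isozyme in the reads per kb of its step, in percent, for each library; symbols are libraries 1 to 3 and the bar is the mean ± SD (n = 3). The Pfkl share lies between 46.6% and 63.5% in the A5-positive libraries and between 38.8% and 48.4% in the A5-negative ones, and the 2 A5 groups do not overlap within either genotype.

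Beyond the 39, 69 further genes of these pathways were listed, of which 59 could be tested. In wild-type A5-positive cells 1 of the 59 rose without the block, where 3.12% of all genes did. It was Pgm1, the phosphoglucomutase that links glucose 6-phosphate to glycogen (log2 fold change ± SE 1.03 ± 0.20, adjusted p = 0.0189). It had 90.7, 64.5 and 56.2 CPM in A5-positive cells, against 35.8, 35.8 and 32.0 CPM in A5-negative cells. With the block 9 rose and 3 fell of the 59, where 8.76% and 5.59% of all genes did, among them Pdk4, a pyruvate dehydrogenase kinase known to be induced by fasting, which fell (log2 fold change -1.09 ± 0.19, adjusted p = 0.00614). In RORgt-deficient A5-positive cells 2 of the 59 rose without the block, where 4.56% of all genes did. They were Slc2a10 and H6pd, which encode an intracellular glucose transporter and the glucose-6-phosphate dehydrogenase of the endoplasmic reticulum. Slc2a10 had 6.65, 3.59 and 7.71 CPM in RORgt-deficient A5-positive cells, against 0.217, 0.0286 and 0.0317 CPM in RORgt-deficient A5-negative cells (adjusted p = 0.011). The fibroblast sums given above also stood higher in A5-positive cells, and their part in the Slc2a10 values was not tested. H6pd rose there with a log2 fold change of 1.17 ± 0.31, adjusted p = 0.0475. With the block 7 rose and 3 fell of the 59, where 10.1% and 7.54% of all genes did. Between the genotypes only Slc37a4, the glucose-6-phosphate transporter, fell in A5-positive cells with the block (-0.60 ± 0.13, adjusted p = 0.038), where 1.76% of all genes fell.

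A list of 14 regulators was also measured, and its calls came from the fit with the block. In wild-type A5-positive cells 1 rose and 2 fell, where 8.76% and 5.59% of all genes did. In RORgt-deficient A5-positive cells 1 rose and 3 fell, where 10.1% and 7.54% of all genes did. Between the genotypes 2 rose and 2 fell in A5-positive cells, where 2.26% and 1.76% of all genes did. Hif1a, the oxygen-sensitive subunit of HIF-1, had 374, 452 and 421 CPM in RORgt-deficient A5-positive cells, 421, 406 and 379.6 CPM in RORgt-deficient A5-negative cells, 556, 519 and 374 CPM in wild-type A5-positive cells, and 331, 394 and 375 CPM in wild-type A5-negative cells. Its wild-type A5 effect (0.40 ± 0.15, adjusted p = 0.173, as log2 fold change ± SE like the values that follow) did not pass. With the block, Egln1, a HIF prolyl hydroxylase, rose in wild-type A5-positive cells (0.48 ± 0.13, adjusted p = 0.0331), while Myc, a factor known to drive glycolytic genes (-0.45 ± 0.13, adjusted p = 0.0379), and Mlxip, a glucose-sensing factor (-0.45 ± 0.10, adjusted p = 0.0189), fell there. In RORgt-deficient A5-positive cells Vhl, which marks HIF for destruction, rose (0.74 ± 0.20, adjusted p = 0.0298), and Txnip, an inhibitor of glucose uptake (-0.40 ± 0.10, adjusted p = 0.0241), Prkaa2, a catalytic subunit of the energy sensor AMPK (-0.88 ± 0.23, adjusted p = 0.0245), and Mlxip (-0.34 ± 0.10, adjusted p = 0.045) fell. Against wild-type A5-positive cells, RORgt-deficient A5-positive cells had less Txnip (-0.82 ± 0.10, adjusted p = 0.0123) and Egln1 (-0.56 ± 0.13, adjusted p = 0.0419) and more Myc (0.52 ± 0.13, adjusted p = 0.0451) and Mlxip (0.45 ± 0.10, adjusted p = 0.0417), with the block. Of 25 hypoxia targets outside glycolysis, 1 rose in wild-type A5-positive cells without the block, Car9, a carbonic anhydrase (1.05 ± 0.26, adjusted p = 0.0497). Over all genes 3.12% rose in that fit. With the block, Ndrg1 was higher and Narf lower in RORgt-deficient than in wild-type A5-positive cells, where 2.26% of all genes rose and 1.76% fell. A further list of 9 paralogues and copies of the glycolytic genes held 3 that could be tested. Of these Eno1b, a near copy of Eno1, rose in wild-type A5-positive cells with the block (0.93 ± 0.27, adjusted p = 0.0411), where 8.76% of all genes rose. Near copies of Eno1 in all took 0.604% of the counts of Eno1 and its copies together.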

How the data were processed

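Raw read counts per gene were deposited by the authors as 1 table of 12 libraries. Per the submitters' processing notes, bcl2fastq, Trimmomatic 0.36, STAR and featureCounts were used with mm10 (GRCm38). Per the labels' protocols, RNA of pooled mice was amplified with a low-input SMART-Seq kit. No source used here gives the strand setting or the handling of multi-mapping reads. Of 55341 table rows, 26 with date-converted symbols (0.110% to 0.128% of counts) were left out.

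Counts were tested with edgeR 4.0.16 in R 4.3.3 (TMM factors, expression filter by group, quasi-likelihood F test on all 12 libraries, BH adjustment over the 16677 genes tested, threshold 0.05). The fit without the block was run on simulated counts with a fixed spread and no shift by replicate number. That run cannot show how the p-values behave in libraries that share such shifts, nor for the fit with the block. Each SE came from the fold change and its F statistic. Levels are TMM-scaled CPM, given as mean ± SD (n = 3). Each library pools 2 or 3 mice, and without the block the p-values rest on the spread between libraries of a group. With the block they rest on the spread left once the shift shared by libraries of the same number is removed. Alternatives were edgeR's own relative log expression (RLE) factors, DESeq2 1.42.0, filters, the 6 compared libraries alone, leaving out each library, and a block for replicate number. Residuals of libraries with the same number correlated at 0.153 to 0.722 in all 18 pairs (9071 genes), so the numbers were taken to pair the libraries. Those with different numbers correlated at -0.63 to 0.315 in 36 pairs. Residuals sum to 0 within a group, so this second range follows in part from the first and is no separate contrast. The labels do not say what a number stands for. Isozyme shares were compared with exact permutation tests (scipy 1.17.1). Near copies were sought with BLAST 2.17.0+ on GENCODE M21 transcripts (at least 95% identity over 100 bases), and promoters came from RefSeq. Full statistics are given for members that passed in either fit, for Slc2a1, Ldha and Pkm in each comparison, and for the 3 smallest p-values where fewer than 3 passed. The members and lists were chosen with earlier results of these data known. Results for some listed genes are not reported here.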

Additional observations from a re-analysis of the deposited data

Results flagged for a closer look

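The fitted A5 effect on Pdk1 had opposite signs in the 2 genotypes, and neither effect passed. Its interaction (RORgt-deficient minus wild type) was -0.58 ± 0.18 on the log2 scale, with an unadjusted p of 0.00813 in edgeR's quasi-likelihood test. The adjusted p was 0.9999 over all genes, so it failed the correction, and 458 genes had an unadjusted p under 0.05. The log2 ratios of A5-positive to A5-negative libraries of the same number were -0.17, -0.22 and -0.32 in RORgt-deficient mice and 0.64, 0.19 and 0.21 in wild-type mice. The signs of these ratios are what flagged Pdk1, so the ratios and the unadjusted p are no separate support. Leaving out 1 library at a time gave interactions from -0.64 to -0.46, or from -0.60 to -0.44 with the block.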

How the results depend on the processing

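With the replicate block, counts over all genes were 2937 (921 without it) for the A5 effect in RORgt-deficient mice, 2394 (575) for that in wild-type mice and 670 (1) for the genotype effect in A5-positive cells. Counts of the 39 genes with this pairing were 8 (0), 17 (9) and 4 (0). DESeq2 called 1597, 1349 and 382 genes, 18 for the genotype effect in A5-negative cells and 4 for the interaction, and 3 and 14 of the 39 genes for the A5 effects in RORgt-deficient and wild-type mice. With no filter on low counts 939 genes were called for the wild-type A5 effect, 67 and 7 for the genotype effects in A5-positive and A5-negative cells, and 1 of the 39 for the RORgt-deficient A5 effect. The 6 compared libraries alone gave 344 genes and 0 of the 39 in wild-type mice, and 1 of the 39 in RORgt-deficient mice. The cause of these shifts was not tested.

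Leaving out 1 library gave 466 to 1731 genes (1073 to 2960 with the block, 1426, 2618 and 2050 without A5-positive library 1 and A5-negative libraries 2 and 3) and 0 to 3 of the 39 (0 to 8) for the RORgt-deficient A5 effect, and 156 to 569 (579 to 2357, 1436 without A5-negative library 2) and 0 to 8 (5 to 18) for the wild-type one. The genotype effect gave 1 to 2 genes (6 to 705, with 86 and 12 without RORgt-deficient libraries 1 and 3 and 23 without wild-type library 2) and 0 of the 39 (0 to 7) in A5-positive cells, and 1 (1 to 4) and 0 of the 39 in A5-negative cells; the interaction gave 0. The Pfkl share difference ranged from 5.61 to 8.21 points (RORgt-deficient A5 effect), 10.5 to 15.4 (wild type), -12.8 to -7.95 (genotype, A5-positive) and -5.66 to -3.13 (A5-negative), and that of Slc16a3 from 2.98 to 6.30, 8.44 to 16.6, -13.8 to -5.81 and -5.17 to 1.09. The last changed sign, to 1.09, without wild-type A5-negative library 1. The genotype effect of Slc2a1 in A5-negative cells, 0.0527 at its highest without the block, changed sign to -0.0391, -0.0311 and -0.0117 without RORgt-deficient library 1 and wild-type libraries 2 and 3, and with the block to -0.0761, -0.0174 and -0.135 without RORgt-deficient libraries 2 and 3 and wild-type library 1. The Ldha interaction ranged from -0.357 to 0.00529, and was at 0.00529 without wild-type A5-positive library 1. The RLE factors of edgeR changed the sign of Mpc1 (wild-type A5 effect), Pfkfb3 and Pdhb (genotype, A5-positive), Ugp2 (genotype, A5-negative) and Gbe1 (interaction), none of them called.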
